A study of Homo sapiens with 9 samples.

Results

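The ZNF genes of HCT116 cells, a widely used line from a human colorectal carcinoma, were taken as the protein-coding genes whose symbol is ZNF and a number and whose mean level over the 9 libraries of the series was at least 10 CPM (counts as a share of the library's total, times 1e6). Of 474 such coding ZNF genes analysed here, 195 passed and are called members below, and 279 lay under the threshold. The threshold is a choice on the mean level, so a gene low in some libraries could pass through the others. ZNF200 and ZNF248 lay just inside it at means of 10.1 and 10.2 CPM, and ZNF589 and ZNF888 just outside it at 9.95 and 9.84 CPM. The series was made to study knockdown of the dopamine transporter, which SLC6A3 encodes, and holds 3 labelled groups of 3 libraries from cells whose genotype is given as WT. The shSLC6A3 DMSO group carried a short hairpin RNA against SLC6A3 and received the solvent DMSO. In the shCTRL VXN group the hairpin was a control, and the agent is written only as VXN. The shCTRL DMSO group carried the control hairpin and received DMSO. How many clones or cultures stand behind a hairpin line is not given in the sources used here, so the p-values reflect how far libraries differ, and that spread could be technical.

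Most proteins with the symbol ZNF belong to the C2H2 zinc finger class. In it repeated fingers, each holding a zinc ion between paired cysteines and histidines, read DNA and sometimes RNA. In many of them the fingers are joined to a KRAB domain, which recruits TRIM28 (KAP1) and through it the histone methyltransferase SETDB1 and heterochromatin proteins, and such proteins are known for silencing transposable elements. Their genes have multiplied in tandem and lie in clusters, above all on chromosome 19, so that neighbours are often close relatives in sequence. Other ZNF proteins without a KRAB domain activate promoters, bind RNA, or work at ribosomes and kinetochores.

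Among the members, a KRAB A box pattern was found in the longest annotated protein of 83, and 189 held at least 1 C2H2 pattern, with a median of 9 fingers per protein and 33 in ZNF462. A pattern that was not found does not show that the domain is absent. Chromosome 19 held 63 members, or 32.3%, against 6.13% of the 9762 other coding genes at 10 CPM or more. Member levels were modest: their means ran up to 302 CPM with a median of 21.6 CPM, where the other coding genes had a median of 46.8 CPM. ZNF664, ZNF146 and ZNF207 were the most abundant by counts. Per kilobase of annotated exon, ZNF146, a protein made almost wholly of fingers, stood at 54.9 CPM, ZNF664 at 47.7 CPM, and ZNF207, a kinetochore protein that binds BUB3, at 10.6 CPM. The lowest count of any member in any library was 139.

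The authors also deposited 2 results tables, one for shCTRL V over shCTRL D and the other for shDAT D over the same denominator. They do not group the libraries as the labels do. A DESeq2 rerun gave all 38907 p-values of each table within 1e-06 when the libraries were grouped as follows. The V libraries were replicate 3 of shCTRL DMSO, replicate 1 of shSLC6A3 DMSO and replicate 3 of shCTRL VXN. The DAT libraries were shCTRL DMSO replicates 1 and 2 and shCTRL VXN replicate 1. The D libraries were shSLC6A3 DMSO replicates 2 and 3 and shCTRL VXN replicate 2. Values per library are given below in these orders. What each library received is taken from neither grouping, and the names V, DAT and D stand only for the columns behind the tables. Within the D libraries, shCTRL VXN replicate 2 stood apart. Its log2 CPM, scaled by TMM over the genes and repeats that passed a filter on low counts, correlated at 0.984 and 0.983 with its D partners. With the shCTRL DMSO libraries among DAT it correlated at 0.994 and 0.994 (Pearson's r across features, which are not independent replicates). Total counts were 30.25 to 60.22 M (1e6). SLC6A3 had 0 to 6 counts in every library and gave no check of the labels. Markers of epithelium summed to 5348 to 5517 CPM in the V libraries, against 4504 to 4612 CPM in the DAT and 4537 to 4736 CPM in the D libraries, with 7 of 8 above 1 CPM throughout. Leukocyte markers summed to at most 0.595 CPM, endothelial markers to at most 1.63 CPM, and 1 of 5 fibroblast markers exceeded 1 CPM in every library. A list of 8 genes of dividing cells, MKI67 among them, summed to 278 to 323 CPM in the V libraries, against 1718 to 1904 CPM in the DAT and 1871 to 1983 CPM in the D libraries. Single epithelial markers did not move alike: CDH1 had 214, 207 and 229 CPM in V and 102 to 107 CPM in the other libraries. EPCAM had 338, 337 and 326 CPM in V, 341, 351 and 358 CPM in DAT and 399, 397 and 332 CPM in D. The epithelial and the dividing-cell sums both moved with every V contrast below, and their part in the members' results was not tested.

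Promoters of 7 members described below are shown first, as a description of their letters. RefSeq promoters of GRCh38.p14, from 250 bases before to 50 bases after the transcript start, were matched by symbol for 165 members, of which 130 had a single entry. ZNF107, ZNF138, ZNF680 and ZNF92 are neighbours on chromosome 7 that were lower in the V libraries, ZNF714 on chromosome 19 was also lower, and ZNF430, near ZNF714, was higher. In these 6 the capitals mark CCAATCAG, which contains the CCAAT box, the letters that the factor NF-Y binds. ZNF367 was the member with the lowest log2 fold change in V, and its capitals mark CCAAT and the letters TTTCCCGC and TTTCGCGC, forms of the site that E2F factors bind, all written here where they lie on either strand.
ZNF107 (chr7:64665883-64666182, plus strand): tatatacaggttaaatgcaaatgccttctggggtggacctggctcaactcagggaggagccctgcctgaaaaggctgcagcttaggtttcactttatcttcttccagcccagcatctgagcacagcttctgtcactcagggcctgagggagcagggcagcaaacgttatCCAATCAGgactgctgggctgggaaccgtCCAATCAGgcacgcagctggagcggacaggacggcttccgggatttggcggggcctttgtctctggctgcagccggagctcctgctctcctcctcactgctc
ZNF138 (chr7:64794178-64794477, plus strand): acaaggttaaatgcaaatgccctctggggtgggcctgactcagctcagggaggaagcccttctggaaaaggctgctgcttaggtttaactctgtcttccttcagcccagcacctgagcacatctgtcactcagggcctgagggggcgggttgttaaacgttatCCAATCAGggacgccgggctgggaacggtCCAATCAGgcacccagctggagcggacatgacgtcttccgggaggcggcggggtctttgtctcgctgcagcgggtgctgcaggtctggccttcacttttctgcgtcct
ZNF680 (chr7:64563022-64563321, minus strand): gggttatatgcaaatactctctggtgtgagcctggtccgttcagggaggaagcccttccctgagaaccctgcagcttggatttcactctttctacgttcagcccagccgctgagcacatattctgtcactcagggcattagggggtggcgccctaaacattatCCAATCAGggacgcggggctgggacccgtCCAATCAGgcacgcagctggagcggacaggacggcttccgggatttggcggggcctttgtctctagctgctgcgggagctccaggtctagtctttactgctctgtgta
ZNF92 (chr7:65373605-65373904, plus strand): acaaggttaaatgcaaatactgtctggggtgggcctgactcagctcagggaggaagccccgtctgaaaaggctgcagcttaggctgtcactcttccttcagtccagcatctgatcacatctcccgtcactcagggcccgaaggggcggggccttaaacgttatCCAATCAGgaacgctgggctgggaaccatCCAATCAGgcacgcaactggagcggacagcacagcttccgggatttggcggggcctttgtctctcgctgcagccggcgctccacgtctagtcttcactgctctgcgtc
ZNF714 (chr19:21081953-21082252, plus strand): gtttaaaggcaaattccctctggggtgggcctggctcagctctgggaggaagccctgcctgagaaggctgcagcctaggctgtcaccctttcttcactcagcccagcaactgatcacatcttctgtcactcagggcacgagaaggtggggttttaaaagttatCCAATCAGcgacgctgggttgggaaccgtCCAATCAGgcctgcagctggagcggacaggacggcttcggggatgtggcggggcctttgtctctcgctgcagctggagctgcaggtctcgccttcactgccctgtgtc
ZNF430 (chr19:21020407-21020706, plus strand): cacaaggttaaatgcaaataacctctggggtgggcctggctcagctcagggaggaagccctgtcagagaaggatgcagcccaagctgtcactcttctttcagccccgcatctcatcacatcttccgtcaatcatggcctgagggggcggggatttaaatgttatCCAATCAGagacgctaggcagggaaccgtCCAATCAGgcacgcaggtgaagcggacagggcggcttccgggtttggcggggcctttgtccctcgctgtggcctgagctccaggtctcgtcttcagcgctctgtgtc
ZNF367 (chr9:96418321-96418620, minus strand): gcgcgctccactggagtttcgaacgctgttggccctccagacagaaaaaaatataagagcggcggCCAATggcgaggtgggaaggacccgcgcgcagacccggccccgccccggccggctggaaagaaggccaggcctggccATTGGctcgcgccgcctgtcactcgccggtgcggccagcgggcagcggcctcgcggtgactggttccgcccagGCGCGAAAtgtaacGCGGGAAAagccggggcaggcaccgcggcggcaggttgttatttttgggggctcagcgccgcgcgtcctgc

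In each of the first 6 promoters CCAATCAG stood 2 times in the same direction with 21 bases between the copies, the nearer copy 52 to 58 bases before the start. After global alignment these 6 promoters were identical at 77.9% to 84.7% of alignment columns in every pair, and each was identical to the ZNF367 promoter at 47.3% to 50.4%. The ZNF367 promoter held TTTCGCGC and TTTCCCGC once each on the strand opposite to the gene, within 35 bases of the start, and CCAAT once on each strand. Both of these E2F forms were uncommon. TTTCCCGC stood in 3.08% of the 130 member promoters, against 3.07% of 5506 promoters of other coding genes at 10 CPM or more. Among all 22114 single promoters it stood in 1.60%. TTTCGCGC stood in 1.54% of member promoters, against 1.07% of those of the other coding genes and 0.511% of all. CCAAT stood in 46.9% of member promoters, against 37.9% of those of the other coding genes and 36.2% of all, and ACTTCCG, letters bound by ETS factors, in 28.5%, against 17.2% and 7.34% in the same order. Both strands were searched, and a match is a description of letters, not a site shown to be bound.

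The first question was what the members did in the libraries behind the authors' table of shCTRL V against shCTRL D. In the V libraries 76 members were higher and 32 lower than in the D libraries at an adjusted p below 0.05 in the authors' deposited table, and 87 were not called. Over all 24274 features of that table with an adjusted p, 21.4% were called higher and 22.7% lower, beside 39.0% and 16.4% of the members. The other coding genes at 10 CPM or more are nearer in depth, and 30.1% of them were higher and 37.4% lower. The median log2 fold change of the members was 0.15 in the authors' deposited table, against -0.05 for those other coding genes and 0.00 for all features. The difference between these lists was not tested. The 10 CPM threshold was a mean over all 9 libraries, of which 3 were V, so membership was partly tied to direction. ZNF367 passed it while under 10 CPM in every V library. ZNF674, at 13.2 to 14.7 CPM in V, missed it at a mean of 8.22 CPM. Changes were mostly small: the median among members called higher was 0.35, 4 of the 76 reached 2-fold, and 5 of the 32 lower members did. Called or not, 2.56% of the members lay at or below a log2 fold change of -1, and 97.9% at or below 1. For the other coding genes at 10 CPM or more these shares were 7.79% and 96.4%. The 3 V libraries did not overlap the 3 D libraries in CPM for 75 of the 76 members called higher and 31 of the 32 called lower. Of all 195 members, called or not, 129 did not overlap, beside 54.4% of the features with an adjusted p. Of those features 44% were called in either direction. Left out in turn, no library among the 9 ended the call of 56 higher and 23 lower members.

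**Figure D1:**
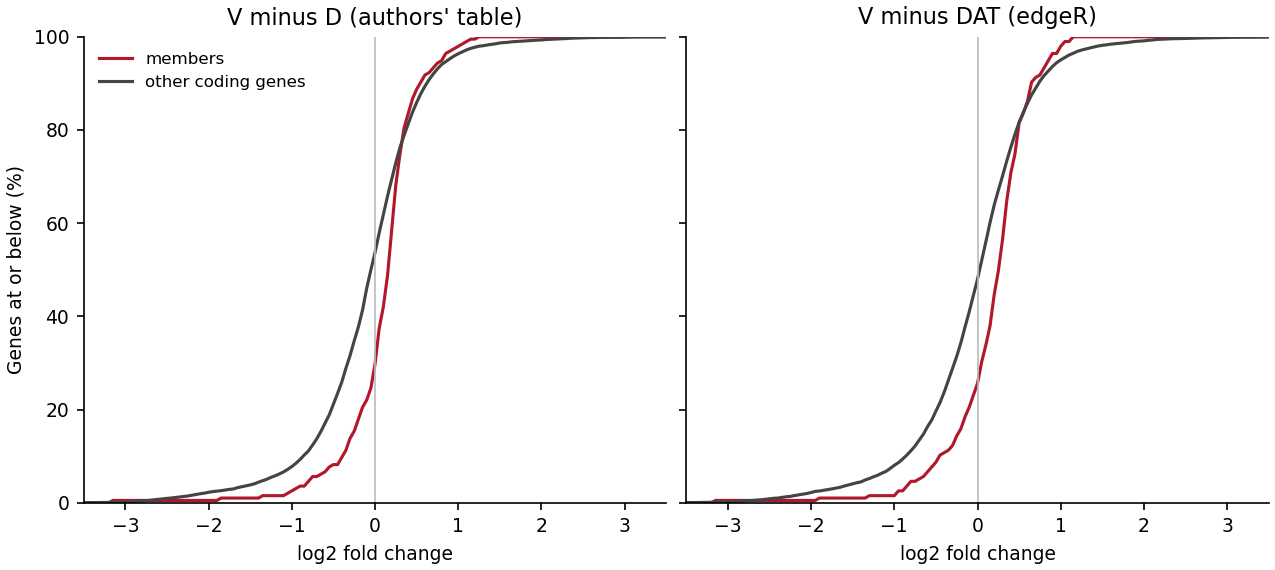
Cumulative share of genes (%) at or below each log2 fold change, for the 195 members and for 9762 other coding genes at 10 CPM or more. Left, V minus D from the authors' deposited table. Right, V minus DAT from edgeR. The member curve crosses 50% at a median of 0.15 on the left, where the other coding genes cross it at -0.05.

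The members took a slightly larger share of the RNA counted in the V libraries. Their summed level was 6723, 6746 and 6766 CPM in the V libraries, against 6286, 6253 and 6018 CPM in the DAT libraries and 6306, 6289 and 6193 CPM in the D libraries. All 3 V libraries lay above all 6 others, although every sum was between 0.602% and 0.677% of the counts. In bulk RNA, more cells of a kind and more RNA per cell cannot be told apart.

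ZNF367, a transcription factor gene (ENSG00000165244.7, GRCh38 chromosome 9, 96385941 to 96418329, minus strand), had the lowest log2 fold change among the members. It stood at 7.53, 6.50 and 2.92 CPM in the V libraries, 52.7, 53.0 and 51.3 CPM in the DAT libraries and 55.1, 54.0 and 48.6 CPM in the D libraries. The V libraries lay far under all others, which overlapped with each other. Its log2 fold change was -3.15 ± 0.32 (SE, n = 3 libraries each) with an adjusted p of 1.65e-22 in the authors' deposited table. ZNF704 (GRCh38 chromosome 8, 80628451 to 80874781, minus strand), a relative of ZNF395 in the family of the GLUT4 enhancer factor, stood at 10.8, 10.9 and 11.2 CPM in the V libraries, 42.8, 43.5 and 44.6 CPM in the DAT libraries and 36.5, 37.7 and 46.9 CPM in the D libraries. Its log2 fold change in that table was -1.86 ± 0.09. ZNF395 itself was at 41.6, 43.4 and 48.3 CPM in the V libraries, 77.4, 77.1 and 77.5 CPM in the DAT libraries and 60.1, 60.9 and 78.7 CPM in the D libraries, with a log2 fold change of -0.56 ± 0.10 in the authors' deposited table. Both relatives were thus lower in V, although 32.9% of the 50-base words of ZNF395 transcripts occur in other genes, and its counts are less certain. ZNF462, a large chromatin protein whose gene is mutated in Weiss-Kruszka syndrome, had 12.9, 14.0 and 12.9 CPM in the V libraries and 22.2, 20.9 and 29.1 CPM in the D libraries, with a log2 fold change of -0.83 ± 0.12 in the authors' deposited table. ZNF551 (7.79, 7.67 and 5.40 CPM in V, 15.3, 15.2 and 14.1 CPM in D) fell by 1.07 on the log2 scale there.

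The highest log2 fold changes in V belonged to genes outside the chromosome 7 group. ZNF469, whose gene is mutated in brittle cornea syndrome (ENSG00000225614.4, GRCh38 chromosome 16, 88427471 to 88440757, plus strand), stood at 38.7, 38.6 and 43.6 CPM in the V libraries, 22.0, 20.7 and 19.3 CPM in the DAT libraries and 15.0, 13.9 and 22.9 CPM in the D libraries. The V libraries lay above all others, and shCTRL VXN replicate 2 was the highest D library. Its log2 fold change was 1.22 ± 0.15 with an adjusted p of 1.88e-16 in the authors' deposited table. ZNF641 had 31.1, 31.0 and 34.1 CPM in the V libraries, 16.5, 16.9 and 17.3 CPM in the DAT libraries and 13.7, 14.6 and 15.8 CPM in the D libraries, with a log2 fold change of 1.13 ± 0.08 in that table. ZNF621 (GRCh38 chromosome 3, 40524878 to 40574685, plus strand) had 95.8, 95.3 and 95.9 CPM in the V libraries, 50.7, 48.8 and 51.3 CPM in the DAT libraries and 43.9, 41.7 and 50.6 CPM in the D libraries. Its V libraries differed by less than 1 CPM from each other and its log2 fold change was 1.08 ± 0.07 in the authors' deposited table. ZNF862 (15.2, 15.9 and 17.4 CPM in V, 6.19, 5.98 and 11.0 CPM in D) rose by 1.04 there, ZNF697 by 0.98, ZNF513, a gene mutated in retinitis pigmentosa, by 0.91, ZNF189 by 0.88, and ZNF224, a KRAB protein that represses aldolase A, by 0.82 on the log2 scale. ZNF641, ZNF621, ZNF862, ZNF189 and ZNF224 carry the KRAB pattern, and ZNF469, ZNF697 and ZNF513 do not. The 8 lowest and 8 highest members kept their call without any single library and under edgeR.

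**Figure D2:**
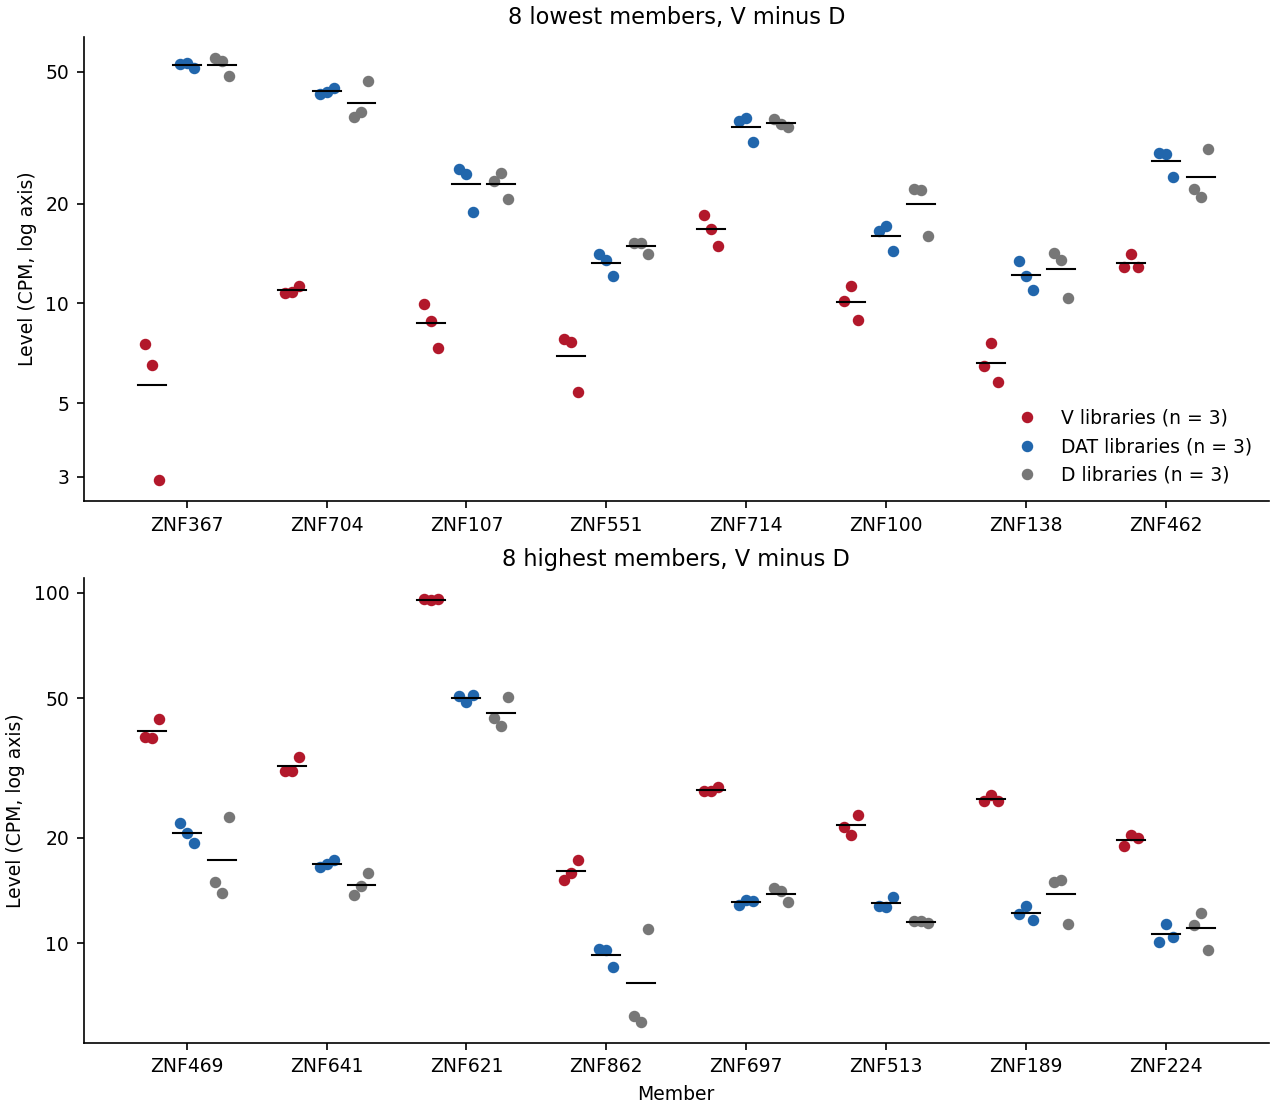
Level (CPM, log axis) in each of the 9 libraries for the 8 members with the lowest (top) and the 8 with the highest (bottom) log2 fold change in the authors' table of V against D. Points are libraries, 3 each for V (left), DAT and D (right) of every gene, and bars are means. V points lie below all DAT and D points in the top panel and above them all in the bottom panel. The genes were picked among called members whose V and D libraries do not overlap, so the separation of V from D was a condition of the choice.

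The most abundant member, ZNF664, had 384, 378 and 356 CPM in the V libraries, 259, 261 and 245 CPM in the DAT libraries and 298, 295 and 248 CPM in the D libraries, and rose by 0.40 on the log2 scale in the authors' deposited V table. ZNF146 had 214, 215 and 206 CPM in the V libraries, 242, 254 and 232 CPM in the DAT libraries and 234, 231 and 219 CPM in the D libraries, and did not pass (adjusted p 0.263). Members with known roles outside silencing moved in both directions. Of the translation and ribosome genes, ZNF622, needed for maturation of the large ribosomal subunit, rose by 0.22 on the log2 scale in the authors' deposited V table, and ZNF598, the ubiquitin ligase that senses collided ribosomes, fell by 0.17. For each of these calls, 7 of the 9 libraries ended it when left out alone. ZNF593, the human relative of yeast Bud20, did not pass (log2 fold change -0.16, adjusted p 0.0642). ZNF207, the BUB3-binding protein, had 144, 144 and 134 CPM in the V libraries, 179, 172 and 171 CPM in the DAT libraries and 198, 203 and 171 CPM in the D libraries, and fell by 0.43 in that table. ZNF330, a nucleolar protein, had 35.6, 34.4 and 34.2 CPM in V, 53.9, 56.3 and 53.5 CPM in DAT and 56.4, 56.5 and 50.2 CPM in D, and fell by 0.63. ZNF638, which recruits the HUSH complex to unintegrated viral DNA, did not pass (148, 145 and 140 CPM in V, 138, 139 and 126 CPM in D, adjusted p 0.327). ZNF346, which binds double-stranded RNA, did not pass either (adjusted p 0.521).

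Among activators and repressors, ZNF143, which binds many active promoters, stood at 28.3, 25.8 and 29.6 CPM in V and 26.7, 27.9 and 25.5 CPM in D with an adjusted p of 0.612 in the authors' deposited table. ZNF281, a factor linked to pluripotency and to epithelial-mesenchymal transition, rose by 0.28 (75.0, 73.5 and 74.6 CPM in V, 63.3, 65.2 and 55.2 CPM in D), ZNF384 by 0.23 and ZNF24 by 0.22, while ZNF148 did not pass (0.791). The call of ZNF24 ended without any 1 of 3 libraries. ZNF410, known to activate CHD4 as nearly its sole target, rose by 0.30 (26.1, 25.5 and 27.3 CPM in V, 21.9, 22.8 and 19.2 CPM in D), and CHD4 fell by 0.44 in the same table, with 36.4% of the 50-base words of ZNF410 shared with other genes. Of the ZNF687, ZNF592 and ZNF532 proteins, which form a complex with ZMYND8, ZNF532 rose by 0.43, and the others had log2 fold changes of 0.19 and 0.13 without passing. ZNF292, a tumour suppressor candidate, fell by 0.33, a call that ended without shCTRL DMSO replicate 3 or without shSLC6A3 DMSO replicate 1. ZNF217, an oncogene amplified in breast cancer, ZNF326, a subunit of the DBIRD splicing complex, ZNF451, a SUMO ligase, ZNF703 and ZNF185, a LIM domain protein of the actin cytoskeleton that bears the symbol without C2H2 fingers, did not pass in V against D (adjusted p 0.433, 0.138, 0.749, 0.854 and 0.0753). ZNF274, ZNF91 and ZNF93, KRAB proteins known from repeat silencing, were under the threshold at means of 9.64, 7.62 and 0 CPM.

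Splits of the members by protein and position gave the following counts in the authors' deposited V table, where 21.4% of all features were higher and 22.7% lower, and 30.1% and 37.4% of the other coding genes at 10 CPM or more. Of the 83 members with the KRAB pattern 34 were higher and 12 lower (median log2 fold change 0.18), and of the 112 without it 42 were higher and 20 lower (median 0.14). Of the 63 members on chromosome 19, 27 were higher and 5 lower (median 0.19), and of the 132 elsewhere 49 were higher and 27 lower (median 0.14). KRAB members on chromosome 19 were higher in 23 of 43 and lower in 3. Those on other chromosomes were higher in 11 of 40 and lower in 9 (27.5% and 22.5%). Among members without the pattern, the share called higher was smaller on chromosome 19 than elsewhere. There 4 of 20 were higher and 2 lower (median 0.07), and on other chromosomes 38 of 92 were higher and 18 lower (median 0.15). By number of fingers, of 34 members with 1 to 4 C2H2 patterns 7 were higher and 13 lower (median -0.09), of 64 with 5 to 9 patterns 31 were higher and 6 lower (median 0.21), and of 91 with 10 or more 37 were higher and 12 lower (median 0.18). Of the 6 members with 0 C2H2 patterns, 1 was higher (ZNF862) and 1 lower (ZNF330). Members whose transcripts share at least 10% of their 50-base words with other genes gave 8 higher and 3 lower of 18. These splits were not tested against each other.

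The next list, of 24 genes, was chosen with earlier results of these data known. It joined genes of KRAB silencing to other chromatin genes such as UHRF1, DNMT1 and SUV39H1. Of the 24, 16 (66.7%) were lower in V than in D, 4 (16.7%) were higher and 4 were not called. Their median log2 fold change was -0.45 in the authors' deposited table. Of all features there, 22.7% were lower and 21.4% higher, and 37.4% and 30.1% of the other coding genes at 10 CPM or more. TRIM28, the cofactor that KRAB domains bind, had 477, 484 and 529 CPM in the V libraries, 774, 734 and 747 CPM in the DAT libraries and 799, 823 and 854 CPM in the D libraries, a log2 fold change of -0.72 ± 0.06. UHRF1 and DNMT1, which copy DNA methylation at replication, fell by 2.60 and 1.61, and SUV39H1, a histone H3K9 methyltransferase, by 2.11. SETDB1, the methyltransferase TRIM28 recruits, rose by 0.17, and MORC2, TASOR and WIZ rose by 0.27, 0.13 and 0.32. The genes of dividing cells moved with this list, as given above, and their part in it was not tested. Beside the same shares, among other C2H2 families at 10 CPM or more, 6 of 8 ZSCAN, 3 of 5 ZKSCAN and 4 of 7 ZFP genes were higher and none of these 20 lower, while ZBTB genes gave 9 higher and 5 lower of 27, KLF genes 6 and 1 of 12, and SP genes 3 and 1 of 6.

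The position of members was then described by blocks. Coding ZNF genes on 1 chromosome with gaps of at most 1000000 bases were joined into blocks, and 10 blocks held 4 or more members, 80 members in all. These blocks were described after the values had been seen, and they carry no test. In 8 of the 10 blocks more members were higher than lower in V against D in the authors' deposited table. Of all 195 members 39.0% were higher there and 16.4% lower, beside 21.4% and 22.7% of all features, so the list as a whole also leaned higher. The block of 11 members on chromosome 19 from 7069444 to 9793180 had 8 higher and 0 lower (median 0.28), that of 14 members from 51571298 to 53580269 had 6 higher and 0 lower, and that of 5 members from 43525497 to 45076588, which holds ZNF224, had 4 higher and 0 lower. The largest block, 18 members from 55476332 to 58481230, had 5 higher and 1 lower, ZNF551.

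The block on chromosome 7 from 64045443 to 65401135 was the exception in which all 4 members were lower. ZNF107 stood at 9.95, 8.87 and 7.36 CPM in the V libraries, 25.4, 24.6 and 18.9 CPM in the DAT libraries and 23.4, 24.7 and 20.7 CPM in the D libraries. ZNF138 had 6.48, 7.58 and 5.80 CPM in V, 13.4, 12.1 and 10.9 CPM in DAT and 14.1, 13.5 and 10.4 CPM in D, ZNF680 had 9.40, 10.3 and 8.53 CPM in V, 18.1, 19.1 and 16.5 CPM in DAT and 18.4, 16.5 and 16.0 CPM in D, and ZNF92 had 15.5, 15.2 and 13.5 CPM in V, 22.9, 22.3 and 21.2 CPM in DAT and 26.3, 26.6 and 19.7 CPM in D. In each of the 4 genes every V library was below every other library. ZNF107, ZNF138 and ZNF680 had V means of 8.73, 6.62 and 9.42 CPM and passed the 10 CPM threshold through the DAT and D libraries. Log2 fold changes in the authors' deposited table were -1.37 ± 0.15 for ZNF107, -0.90 ± 0.16 for ZNF138, -0.83 ± 0.12 for ZNF680 and -0.69 ± 0.14 for ZNF92. Between 0.493% and 1.64% of the 50-base words of these 4 genes occur in other genes. Of the 6 other ZNF genes of this block, 4 had means under 0.01 CPM. ZNF273, at 3.13, 2.65 and 1.56 CPM in V, 7.33, 7.49 and 7.14 CPM in DAT and 7.82, 6.95 and 6.10 CPM in D, fell by 1.46 there. ZNF117, also under the threshold, rose by 0.59 (9.28, 9.18 and 8.83 CPM in V, 5.63, 4.70 and 7.67 CPM in D). It shares its locus with ERV3-1, an endogenous retroviral gene that rose by 0.99, so reads of the pair may be split between them.

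The second block in which lower members outnumbered higher ones lay on chromosome 19 from 19668796 to 24129961. ZNF714 was at 18.5, 16.8 and 14.9 CPM in the V libraries, 35.5, 36.2 and 30.7 CPM in the DAT libraries and 36.0, 34.7 and 34.1 CPM in the D libraries, and its log2 fold change was -1.04 ± 0.10 in the authors' deposited table. ZNF100 had 10.1, 11.3 and 8.89 CPM in V, 16.6, 17.1 and 14.4 CPM in DAT and 22.2, 22.0 and 15.9 CPM in D (-0.95 ± 0.16), and ZNF101 had 11.8, 11.5 and 10.5 CPM in V, 12.3, 12.6 and 12.8 CPM in DAT and 17.5, 16.5 and 12.03 CPM in D (-0.42 ± 0.15). The call of ZNF101 ended without any 1 of 3 libraries. ZNF430 went the other way, at 21.2, 22.2 and 20.6 CPM in V, 14.2, 16.2 and 13.3 CPM in DAT and 16.4, 15.7 and 13.0 CPM in D, with 0.48 ± 0.13, and ZNF431 was not called.

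**Figure D3:**
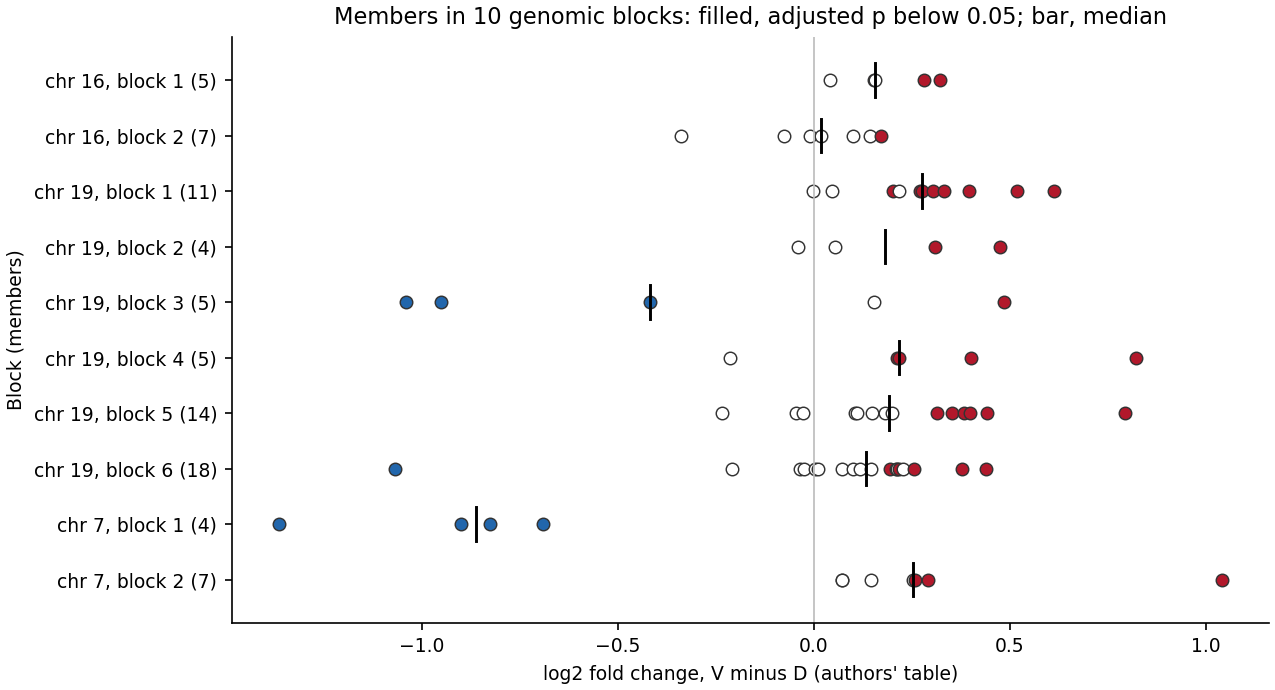
Log2 fold change of V against D in the authors' deposited table for the 80 members in 10 genomic blocks, numbered along each chromosome, with the number of members in brackets. Points are genes, filled where the adjusted p is below 0.05 (red higher, blue lower), and bars are block medians. All 4 members of the first chromosome 7 block lie between -1.37 and -0.69.

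The paired CCAATCAG of the printed promoters was then sought in all RefSeq promoters, after the chromosome 7 members had been seen to share it. The search string was CCAATCAG, 21 bases of any kind, and CCAATCAG again, on either strand. It stood in 31 of 35116 promoter entries (0.0883%), and 24 of these 31 belonged to ZNF genes, 9 of them on chromosome 7 and 12 on chromosome 19. Of the 24, 10 were members, 4 lay between 1 and 10 CPM, and 10 were under 1 CPM or not matched to a row. Of the 10 members 6 were lower in V than in D in the authors' deposited table, 1 was higher and 3 were not called, and the median log2 fold change was -0.51, where 22.7% of all features were lower. The 6 were ZNF107, ZNF714, ZNF138, ZNF680, ZNF92 and ZNF678 on chromosome 1, which had 13.8, 12.5 and 10.7 CPM in V, 17.1, 16.8 and 14.9 CPM in DAT and 15.6, 15.5 and 14.9 CPM in D (-0.30 ± 0.11). The higher member was ZNF430, and ZNF431 (0.15 ± 0.10), ZNF195 (0.01 ± 0.09) and ZNF267 (-0.34 ± 0.16) did not pass. All 4 genes between 1 and 10 CPM were lower: ZNF724 by 2.15, ZNF273 by 1.46, ZNF85 by 1.44 and ZNF675 by 0.36 on the log2 scale. The set was picked from 4 lower members, so its counts carry no test, and ZNF430 and ERV3-1 hold the same pair and were higher.

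**Figure D4:**
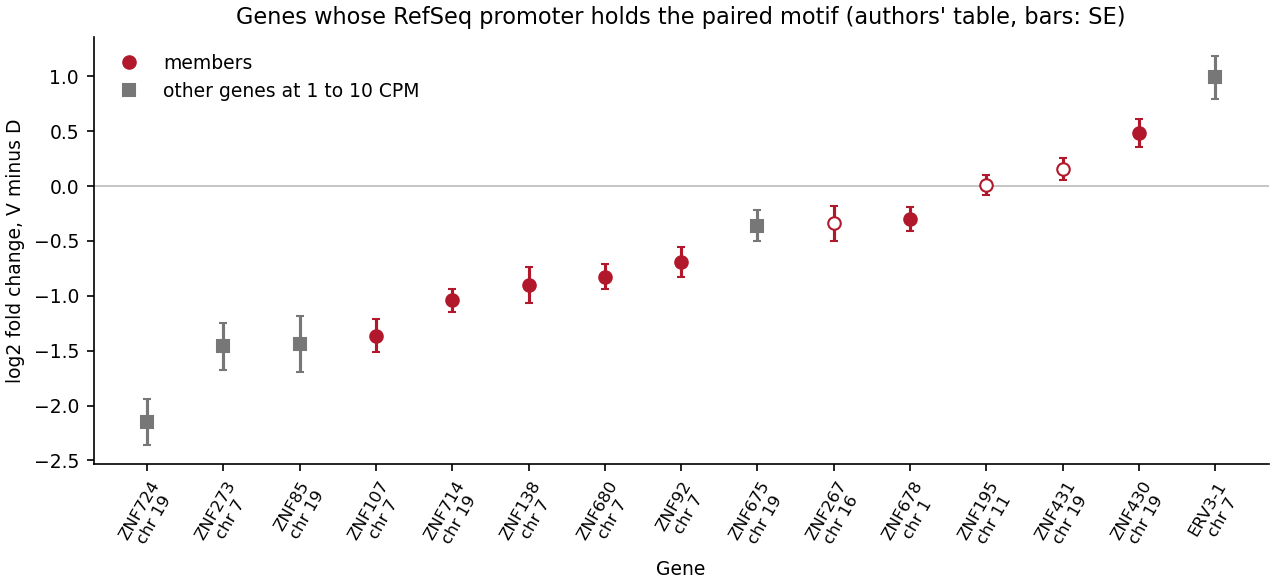
Log2 fold change of V against D in the authors' deposited table, with its standard error, for the 15 genes above 1 CPM whose RefSeq promoter holds the paired motif. Red circles are members and grey squares are genes between 1 and 10 CPM, filled where the adjusted p is below 0.05. Of the 15 genes 10 are called lower, with ZNF724 at -2.15, and ZNF430 and ERV3-1 are called higher.

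Whether the members separate the V from the DAT libraries was asked directly, since both deposited tables share the D libraries. By edgeR on the 9 libraries, 102 members were higher in V than in DAT, 30 lower and 63 not called at an adjusted p below 0.05, where 28.8% of 20402 features were higher and 28.7% lower. In 99 of the 102 and in all 30 the V and DAT libraries did not overlap. Of all 195 members, called or not, 150 did not overlap, beside 69.4% of features. The member median was 0.25 on the log2 scale, against 0.03 for the other coding genes and 0.00 for all features. With column sums in place of TMM factors the median of all features moved to -0.06 and that of the members to 0.19. The highest members were ZNF189 (25.5, 26.5 and 25.5 CPM in V, 12.1, 12.8 and 11.7 CPM in DAT, log2 fold change 1.14), ZNF697 (27.3, 27.1 and 27.9 CPM in V, 12.8, 13.3 and 13.2 CPM in DAT, 1.13) and ZNF302 (15.2, 16.5 and 15.7 CPM in V, 8.27, 7.76 and 8.13 CPM in DAT, 1.03). ZNF367 fell by 3.16 against DAT, ZNF704 by 1.93 and ZNF714 by 0.97. The 4 members of the first chromosome 7 block were again all lower. This contrast and V against D share the V libraries and are not independent.

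The remaining table, shDAT D against shCTRL D, held few calls among the members. In the DAT libraries 1 member was higher and 4 were lower than in the D libraries in the authors' deposited table, where 1% of features were higher and 5.62% lower (6.62% in either direction), and 3 members had no adjusted p. Of the other coding genes at 10 CPM or more 0.92% were higher and 5.87% lower, beside 0.51% and 2.05% of the members. The member median was -0.042, against -0.041 for the 10403 features with an adjusted p and -0.045 for those other coding genes. By edgeR the medians were -0.06 for the members, 0.01 for all features tested and -0.05 for the other coding genes. ZNF83 was higher, at 42.0, 42.8 and 38.64 CPM in DAT and 29.1, 27.6 and 38.56 CPM in D (0.26 ± 0.11, adjusted p 0.0402). The lower members were ZNF142, whose gene is mutated in a neurodevelopmental disorder (49.2, 46.2 and 42.8 CPM in DAT, 60.3, 60.2 and 51.9 CPM in D, -0.32 ± 0.11), ZNF746, the parkin substrate PARIS that represses PGC-1alpha (21.2, 21.3 and 19.5 CPM in DAT, 28.8, 27.5 and 22.3 CPM in D, -0.32 ± 0.13), ZNF319 (-0.30 ± 0.10) and ZNF48 (-0.29 ± 0.11). In all 5 the DAT and D libraries did not overlap, and shCTRL VXN replicate 2 was the D library nearest to DAT. Of all 195 members, called or not, 41 did not overlap, beside 22.6% of features. By edgeR on the same libraries 0 members were called, with adjusted p values of 0.187 for these 5.

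The count of calls changed most without shCTRL VXN replicate 2. Without that library a DESeq2 rerun called 16 members higher and 76 lower in DAT, where 14.8% of features were higher and 22.7% lower, and the 5 members of the deposited table were among them. Of the other coding genes at 10 CPM or more 14.2% were higher and 42.8% lower without it, beside 8.21% and 39.0% of the members. The D libraries left were shSLC6A3 DMSO replicates 2 and 3, while all DAT libraries carry a shCTRL label. In that fit the hairpin label and the grouping behind the tables coincided and cannot be told apart. Leaving out any other single library left 0 higher and at most 3 lower members. ZNF302, singled out after its values were seen, had 8.27, 7.76 and 8.13 CPM in the DAT libraries, and 11.8 and 12.1 CPM in the shSLC6A3 DMSO libraries among D but 7.01 CPM in shCTRL VXN replicate 2. ZNF292 (58.7, 56.0 and 53.9 CPM in DAT, 37.1, 36.9 and 55.9 CPM in D) and ZNF217 (73.6, 76.8 and 65.9 CPM in DAT, 48.1, 47.8 and 74.2 CPM in D) had shCTRL VXN replicate 2 near the DAT libraries and above its D partners.

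**Figure D5:**
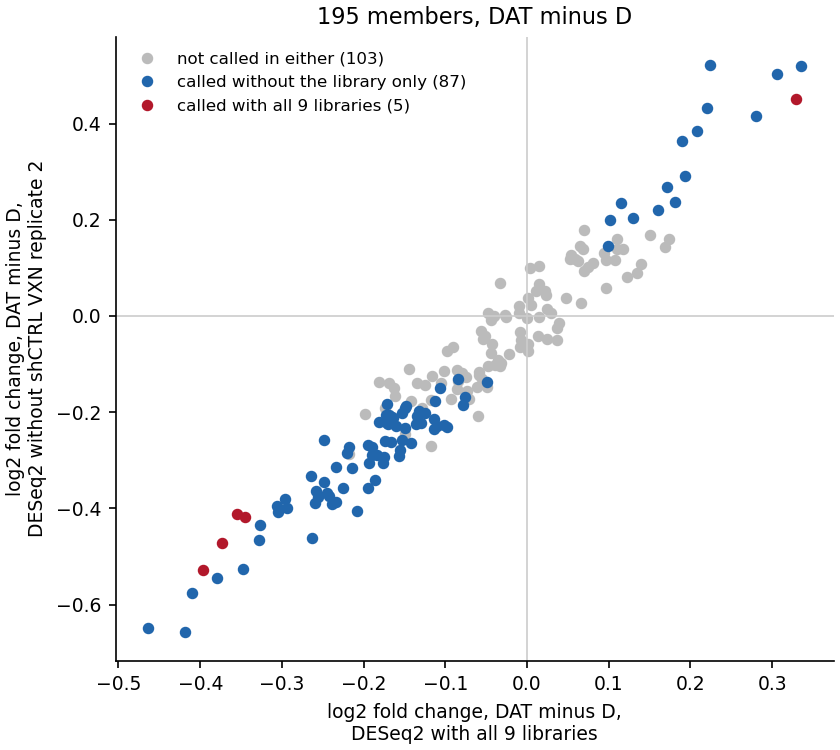
Log2 fold change of DAT against D for the 195 members by DESeq2, with all 9 libraries (horizontal axis) and without shCTRL VXN replicate 2 (vertical axis). Red points are the 5 members called with all 9 libraries, blue points the 87 called only without that library, and grey points the other 103. The median is -0.08 on the horizontal axis and -0.14 on the vertical one.

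Grouped by their labels, with 1 V library in each group, the libraries gave no member call. Between shSLC6A3 DMSO and shCTRL DMSO edgeR called 0 members and 0% of features, DESeq2 also called 0 members, and 0 members against 930 of 20402 features (4.56%) had an unadjusted p below 0.05. Member log2 fold changes ran from -0.41 to 0.44 with a median of 0.05. The smallest p belonged to ZNF217, at 53.0, 48.1 and 47.8 CPM in shSLC6A3 DMSO replicates 1 to 3 and 73.6, 76.8 and 50.2 CPM in shCTRL DMSO (log2 fold change -0.39, edgeR adjusted p 0.978). The groups overlapped, with shCTRL DMSO replicate 3 among the shSLC6A3 DMSO libraries. ZNF101 and ZNF326 followed, with log2 fold changes of 0.35 and 0.27.

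Between shCTRL VXN and shCTRL DMSO edgeR called 0 members, against 0.0098% of features (2 of 20402), and DESeq2 also called 0 members. An unadjusted p below 0.05 was found for 2 members and for 384 features (1.88%). ZNF316 had 49.4, 53.1 and 49.6 CPM in shCTRL VXN replicates 1 to 3 and 46.8, 45.3 and 41.3 CPM in shCTRL DMSO, and ZNF480 had 20.2, 19.6 and 16.7 CPM in shCTRL VXN and 21.7, 22.5 and 22.7 CPM in shCTRL DMSO. Neither pair of groups overlapped, with log2 fold changes of 0.20 and -0.24, and neither passed the adjustment (edgeR adjusted p 0.999978 for both). ZNF84 was next at -0.22. Each labelled group holds 1 library of the V set, and values spread widely inside a label for members such as ZNF367, which stood at 6.50, 55.1 and 54.0 CPM in shSLC6A3 DMSO, 51.3, 48.6 and 2.92 CPM in shCTRL VXN and 52.7, 53.0 and 7.53 CPM in shCTRL DMSO. ZNF107 stood at 8.87, 23.4 and 24.7 CPM in shSLC6A3 DMSO, 18.9, 20.7 and 7.36 CPM in shCTRL VXN and 25.4, 24.6 and 9.95 CPM in shCTRL DMSO.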

How the data were processed

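The authors deposited 1 table of unnormalised read counts for 61832 rows (60651 genes, 1181 repeat subfamilies) and 2 tables of results. Per the submitters' processing notes, fastp 0.20.1, FastQC 0.11.9, STAR and DESeq2 1.34.0 were used on GRCh38. No source used here names the counter, its strand setting or its annotation, so antisense or overlapping genes and close paralogs cannot be told apart fully. In the deposited tables log2 fold changes are shrunken and carry standard errors. The deposited p-value of every feature was matched by a DESeq2 rerun. The base mean, a signal of normalised counts, was computed by the authors and is not printed.

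Levels are CPM over all rows. Own fits used edgeR 4.0.16 (quasi-likelihood, TMM, filterByExpr) and DESeq2 1.42.0 in R 4.3.3, with Benjamini-Hochberg adjustment over all features and calls at 0.05, and were tested on simulated data. DESeq2 fold changes of own reruns are not shrunken. Groups came from the labels (title of shCTRL VXN replicate 3: VNN, treatment label VXN), and the tables' columns from matching their p-values. KRAB and C2H2 patterns, positions and shared 50-base words came from GENCODE 29 translations and transcripts (in place of the RefSeq proteins first planned), and promoters from RefSeq. Biopython 1.88 aligned promoters.

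The members and gene lists were chosen with earlier results of these data known. Named members are the 8 highest and 8 lowest called, non-overlapping members of each deposited table, up to 5 per direction for V against DAT, the 3 smallest p of each labelled comparison, the 3 most abundant, those nearest the threshold, and a list of known roles. Genes of the blocks, the paired motif and those between 1 and 10 CPM were chosen after their values were seen, and of the list of known roles ZNF518B is no member. ZNF302, ZNF292 and ZNF217 were singled out in the comparison without a library after their values were seen. Alternatives were other tools, normalisations, filters, thresholds, a replicate block and each library left out. A gene of this name pattern is not reported here.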

Additional observations from a re-analysis of the deposited data

How the results depend on the processing

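The counts of members higher and lower in V against D held within 1.5 times under edgeR, under column sums and without any single library (62 to 75 higher and 25 to 38 lower), and those of V against DAT did so under DESeq2, its size factors, column sums, no filter on low counts and without any single library (95 to 119 higher and 26 to 37 lower). With a further limit of 2-fold, V against D had 4 higher and 5 lower members, and V against DAT 4 higher and 3 lower. For DAT against D, edgeR with TMM or column sums and the 2-fold limit each gave 0 higher and 0 lower members, and leaving out a library gave 0 to 16 higher and 0 to 76 lower, the upper ends without shCTRL VXN replicate 2. The cause was not tested. The member median of V against D by edgeR was 0.19, moved to 0.15 with column sums and ran from 0.16 to 0.21 without a library. That of DAT against D was -0.06 and ran from -0.10 to -0.035, and that of V against DAT moved from 0.25 to 0.19 with column sums. The mean summed level in the V libraries was 6745 CPM, 6884 CPM with repeats left out of the denominator and 6891 CPM with TMM sizes, and in the D libraries 6263 CPM, or 6371 CPM with repeats left out. Same-numbered libraries of different labels deviated from their label means together or in opposite directions (correlations from -0.67 to 0.88). Each label holds 1 V library, whose shift enters these deviations. Whether the replicate numbers of the titles pair the libraries could therefore not be told. With the number as a replicate block, 0 members were called in either labelled comparison and the medians were 0.07 and -0.02. Of the single members named, 82 values lost and 52 gained their call under an alternative and none that was called changed direction. Every member had at least 139 counts in each library, and whether depth or the number of libraries limited the calls was not tested.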

Other observations

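Below the 10 CPM threshold, 151 coding ZNF genes had means between 1 and 10 CPM, and 56 of them were higher and 25 lower in V than in D in the authors' deposited table, where 21.4% of all features were higher and 22.7% lower. Among those 81, named here as the 5 furthest in each direction, ZNF488 stood at 0.356, 0.345 and 0.189 CPM in V, 8.07, 7.16 and 8.56 CPM in DAT and 5.88, 5.61 and 9.28 CPM in D. ZNF519 had 0.807, 1.10 and 0.693 CPM in V and 3.72, 3.60 and 4.38 CPM in D, and ZNF695 1.57, 1.59 and 1.49 CPM in V and 6.18, 6.93 and 6.66 CPM in D. ZNF724 and ZNF850 fell by 2.15 and 1.69 on the log2 scale. Higher in V were ZNF425 (8.43, 8.14 and 8.74 CPM in V, 2.57, 2.27 and 2.45 CPM in DAT, 2.44, 1.94 and 2.39 CPM in D), ZNF674 (13.2, 14.7 and 13.2 CPM in V, 4.76, 5.002 and 4.496 CPM in DAT, 7.01, 6.74 and 4.82 CPM in D) and ZNF596 (7.31, 7.71 and 6.39 CPM in V, 3.39, 3.27 and 3.22 CPM in D), with ZNF497 and ZNF222 at log2 fold changes of 0.98 and 0.93.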
